A study of Mus musculus with 9 samples.

Results

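The renin-angiotensin system was followed through 9 genes on microarrays of mouse lung: Agt, Ren1, Atp6ap2, Ace, Enpep, Agtr1a, Agtr1b, Agtr2 and Mas1. They were chosen by name, with earlier results of these arrays known but by no rule on measured values, out of 20854 genes that had a probe on the arrays and a symbol. Each gene was read from its brightest probe, and all 9 were found. The series holds 9 one-color arrays, 4 labeled control and 5 labeled irradiated. All were prepared from lung of male C57BL/6 mice labeled as 10 weeks old, which the methods give as the age at irradiation and not at tissue collection, and the irradiated arrays carried RNA of the left lung after a single dose given under zoletil (30 mg/kg) and rompun (10 mg/kg). Neither a dose, nor a region of the lung, nor a time after exposure is labeled, so the spread among the irradiated arrays includes any such difference, and RNA was pooled before labeling, so the p-values describe the spread between pools and not between single animals. The comparison asks whether the genes that make, cut and sense angiotensin differed between control and irradiated lung.

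Angiotensinogen, encoded by Agt, is a plasma protein made mainly by the liver. Renin cuts it to angiotensin I, and angiotensin-converting enzyme, which sits on the luminal face of the lung capillary endothelium, removes a dipeptide to give angiotensin II. Angiotensin II constricts vessels through its type 1 receptors, while the type 2 receptor and the Mas receptor are known for opposing actions. The lung is the textbook site of the conversion step.

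Windows at the start sites of 4 members are shown because they place the precursor, the enzyme that cuts it first, a receptor and the lung converting enzyme in the genome. Ace has a pair of listed start sites. Each window is the 60 bases before a start, read on the strand of the gene, from RefSeq on the assembly GRCm38.p6. Capitals mark the letters TATAAA, searched on the strand of the gene.
Agt, chr8:124569707-124569766, minus strand: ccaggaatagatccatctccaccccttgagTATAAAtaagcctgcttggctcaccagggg
Ren1, chr1:133350614-133350673, plus strand: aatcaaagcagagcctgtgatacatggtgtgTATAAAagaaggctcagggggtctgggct
Agtr1b, chr3:20367178-20367237, minus strand: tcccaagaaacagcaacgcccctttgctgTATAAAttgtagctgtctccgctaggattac
Ace, first start site, chr11:105967888-105967947, plus strand: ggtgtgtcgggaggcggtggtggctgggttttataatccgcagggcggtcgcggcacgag
Ace, second start site, chr11:105975129-105975188, plus strand: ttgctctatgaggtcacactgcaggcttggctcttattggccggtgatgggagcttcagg
The letters begin 30 bases before the start in Agt, 29 in Ren1 and 31 in Agtr1b. They are in 3 of the 9 windows listed for 8 members, and in 2.87% of the 32851 windows of the whole table. Agtr1a was not matched in the table. A match of letters is a description of the window and was set against no value of the arrays.

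None of the 9 members passed the test for a difference between irradiated and control lung. By limma, 0 of 9 passed an adjusted p under 0.05, which 0.333% of all 39302 probes passed, and 0 of 9 had an unadjusted p under 0.05, which 9.94% of all probes had. In 0 of 9 members did every irradiated array lie on one side of every control array, which was so for 4.16% of all probes with a value on each array. The median difference over the 9 members was −0.065 on the log2 scale, against 0.0063 over all 20854 genes. Leaving aside Agtr2, whose signal was at background, 2 members lay above 0 and 6 below. All differences below are irradiated minus control on the log2 scale, where 1 unit is a 2-fold change, and levels are log2 intensities of one probe, which are not comparable between genes. In whole tissue, fewer cells of a type and less RNA per cell cannot be told apart.

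**Figure D1:**
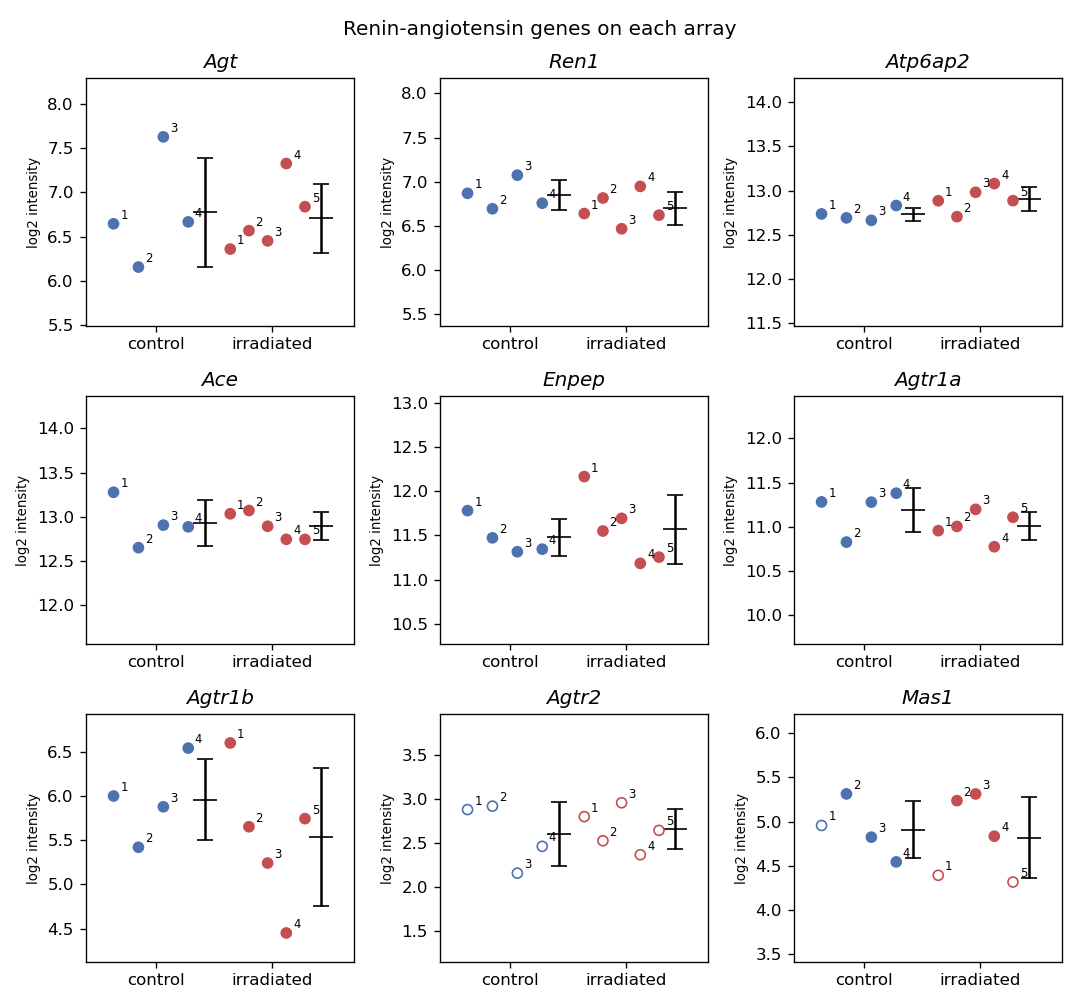
Log2 intensity of the 9 members on each array, controls in blue and irradiated arrays in red, with the array number beside each point and the mean ± SD of each group to the right. Open points were not well above background. Each panel is placed at the level of its own gene and spans the same number of log2 units, and the groups overlap in all 9 panels.

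The precursor Agt varied more among arrays of one kind than between the kinds. Its log2 intensity was 6.65, 6.15, 7.63 and 6.67 on the control arrays 1 to 4, and 6.36, 6.57, 6.45, 7.33 and 6.84 on the irradiated arrays 1 to 5. Control 3 was the highest and control 2 the lowest of all 9 arrays, so the controls enclosed every irradiated array. The means were 6.77 ± 0.62 (SD, n = 4) and 6.71 ± 0.39 (SD, n = 5), and the difference was −0.065 (SE 0.31, 95% confidence interval −0.76 to 0.63, limma adjusted p = 0.988). This interval spans 0.59-fold to 1.55-fold. Liver markers are relevant to Agt, since hepatocytes are its main source, and fat cells also make it. Each marker was centered on its own mean over the 4 controls, also where the mean of a list is given by itself below. The mean of 6 liver markers ran from −0.64 to 1.17 in the controls and from −0.046 to 2.09 in irradiated lung. Only 1 of the 6 was well above background on every array. The mean of 7 fat-cell markers ran from −0.37 to 0.29 in the controls and from −2.69 to −0.13 in irradiated lung. Control 3, where Agt was highest, also had the highest mean of 8 skeletal muscle markers, 4.52, against −2.19 to −0.97 on the other arrays. The part of these tissues in the Agt values was not tested.

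Renin, encoded by Ren1, is the aspartyl protease that opens the cascade. Log2 intensities of Ren1 were 6.87, 6.69, 7.07 and 6.76 in the controls and 6.64, 6.82, 6.47, 6.95 and 6.62 in the irradiated arrays. The ranges overlapped, with control 3 highest and irradiated 3 lowest. The groups averaged 6.85 ± 0.17 (SD, n = 4) and 6.70 ± 0.19 (SD, n = 5), a difference of −0.15 (SE 0.17, 95% confidence interval −0.53 to 0.23, limma adjusted p = 0.863). The interval allows a level of 0.69-fold to 1.17-fold of control.

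Atp6ap2, the (pro)renin receptor and an accessory protein of the vacuolar proton pump, had the smallest p of the members. Its intensities were 12.74, 12.69, 12.66 and 12.83 in the controls and 12.88, 12.70, 12.98, 13.08 and 12.89 in irradiated lung. Irradiated arrays 1, 3, 4 and 5 lay above every control, and irradiated 2 lay within the controls. The controls averaged 12.73 ± 0.073 (SD, n = 4) and the irradiated arrays 12.91 ± 0.14 (SD, n = 5). The difference of 0.18 (SE 0.089, 95% confidence interval −0.021 to 0.38) did not pass the test (limma adjusted p = 0.569). Without irradiated 2 the groups no longer overlapped, and the difference was 0.23 with an adjusted p of 0.447.

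Ace, the converting enzyme, had the difference nearest to 0 of the members. On the controls it read 13.28, 12.65, 12.90 and 12.88, and on the irradiated arrays 13.03, 13.07, 12.89, 12.74 and 12.74. Control 1 was highest and control 2 lowest, and every irradiated array lay between them. The means were 12.93 ± 0.26 (SD, n = 4) and 12.90 ± 0.15 (SD, n = 5). The difference was −0.033 (SE 0.13, 95% confidence interval −0.32 to 0.26, limma adjusted p = 0.983), so the interval spans 0.80-fold to 1.20-fold. Its sign turned without control 1, where the difference was 0.083.

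Endothelial cells carry most of the converting enzyme of the lung. All 13 endothelial markers were well above background on every array, and 0 of 13 passed the adjusted test. Their mean, centered per gene, lay between −0.066 and 0.13 on the controls and between −0.25 and 0.17 on the irradiated arrays, a difference of −0.069. Subtracting the mean of these markers from Ace on each array left −1.28 ± 0.18 in the controls (SD, n = 4) and −1.24 ± 0.089 in the irradiated arrays (SD, n = 5). This difference of 0.037 did not pass an exact two-sided permutation test (p = 0.738, adjusted p = 0.738 over 3 such differences), for which the smallest p of 4 against 5 arrays is 0.00794. It turned to −0.035 without control 2. Of the capillary subsets of lung endothelium, the 5 markers of general capillary cells differed by −0.40 in their mean and the 6 markers of aerocytes by 0.081, and 0 of 5 and 0 of 6 passed the adjusted test. Apln, an aerocyte marker singled out after its values were seen, differed by 1.04 (adjusted p = 0.124), with every irradiated array above every control.

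Enpep, aminopeptidase A, trims angiotensin II to angiotensin III and is carried by pericytes and by some epithelia. Values in the controls were 11.78, 11.47, 11.31 and 11.34, and in the irradiated arrays 12.17, 11.55, 11.69, 11.18 and 11.25. Irradiated 1 was the highest and irradiated 4 the lowest of the 9 arrays. The means were 11.48 ± 0.21 (SD, n = 4) and 11.57 ± 0.39 (SD, n = 5), and the difference of 0.092 (SE 0.20, 95% confidence interval −0.35 to 0.53) had a limma adjusted p of 0.952. Its sign rested on irradiated 1, without which it was −0.058. That array also had the lowest mean of 9 heart muscle markers, −5.52, against −0.53 to 0.54 on all other arrays, and the lowest mean of 8 smooth muscle markers, −0.85, against −0.54 to 0.22. The part of these tissues in the Enpep values was not tested.

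Enpep was also set against pericytes. The 10 pericyte markers were all well above background on every array, and their centered mean lay between −0.15 and 0.19 in the controls and between 0.032 and 0.35 in the irradiated arrays. On each array, Enpep minus the mean of the pericyte markers was −0.39 ± 0.17 in the controls (SD, n = 4) and −0.48 ± 0.34 in irradiated lung (SD, n = 5). The difference of −0.088 did not pass the exact permutation test (p = 0.690, adjusted p = 0.738). Without irradiated 1 it was −0.24, with an adjusted p of 0.129 by the same exact test. In that setting a single difference could not pass after adjustment, so the value is given without a conclusion.

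**Figure D2:**
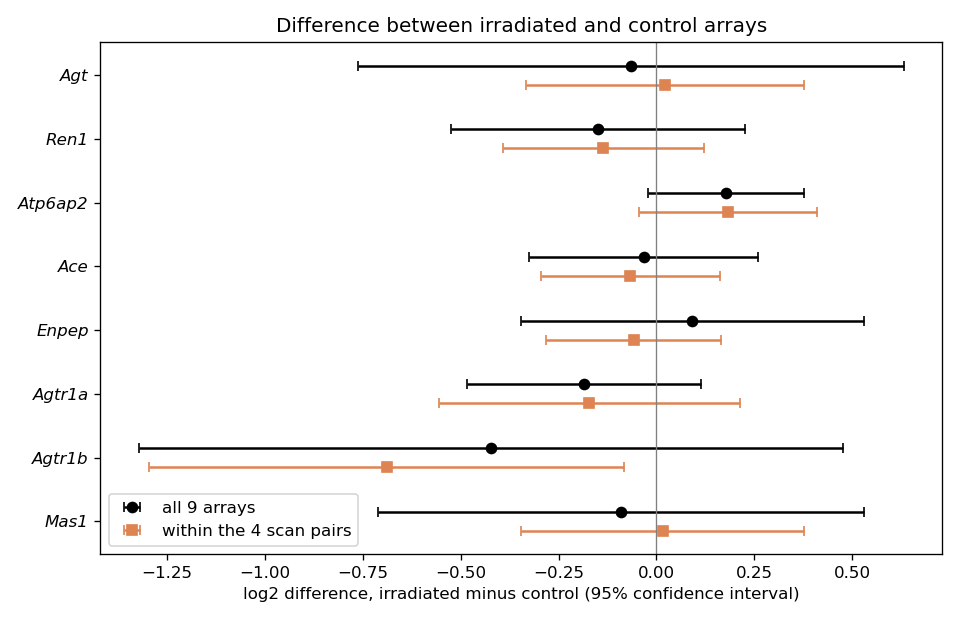
Difference of log2 intensity, irradiated minus control, with its 95% confidence interval, for 8 members, with Agtr2 left out as not above background. Black points use all 9 arrays and orange squares the 4 scan pairs, which are arrays alike in the height of their spots on the image and in background. The interval of every member includes 0 over all 9 arrays, and that of Agtr1b excludes 0 within the pairs.

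Mice carry a pair of type 1 receptor genes, and Agtr1a, known as the main one in most tissues, was well above background on all 9 arrays. Log2 intensities of Agtr1a were 11.28, 10.83, 11.28 and 11.38 in the controls and 10.95, 11.00, 11.20, 10.77 and 11.11 in the irradiated arrays. All irradiated arrays lay below controls 1, 3 and 4, and control 2 lay among the irradiated arrays. The groups averaged 11.19 ± 0.25 (SD, n = 4) and 11.01 ± 0.16 (SD, n = 5), a difference of −0.18 (SE 0.13, 95% confidence interval −0.48 to 0.12, limma adjusted p = 0.747). Without control 2 the groups did not overlap, and the difference was −0.31 with an adjusted p of 0.429.

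Agtr1b, the other type 1 receptor gene, had the most negative difference of the members and the widest interval. It read 6.00, 5.42, 5.88 and 6.54 in the controls and 6.60, 5.65, 5.24, 4.45 and 5.74 in the irradiated arrays. Irradiated 1 was the highest and irradiated 4 the lowest array. The means were 5.96 ± 0.46 (SD, n = 4) and 5.54 ± 0.78 (SD, n = 5), and the difference was −0.42 (SE 0.40, 95% confidence interval −1.32 to 0.48, limma adjusted p = 0.828). The interval spans 0.40-fold to 1.39-fold. Leaving out irradiated 4 gave −0.15 and leaving out irradiated 1 gave −0.69. The Agtr1b difference was −0.18 with normexp background correction, −0.27 in the authors' normalized table and −0.59 with scaling to the 75th percentile.

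The receptors with opposing actions were at the limit of detection. Agtr2, the type 2 receptor, was not well above background on any of the 9 arrays (mean log2 intensity 2.61 ± 0.36 in 4 controls and 2.66 ± 0.23 in 5 irradiated arrays, SD), and no fold is given. Mas1, the receptor of angiotensin-(1-7), was well above background on 3 of 4 control and 3 of 5 irradiated arrays. Its means were 4.91 ± 0.32 (SD, n = 4) and 4.82 ± 0.46 (SD, n = 5), with a difference of −0.091 and a limma adjusted p of 0.973. A dimmer probe of Mas1, well above background on 1 of 4 control and 1 of 5 irradiated arrays, differed by −0.060. The array files carry an older and a newer version of the accessions. Only the newer assigns the brighter probe to Mas1, while both assign the dimmer one to it.

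Arrays also fell into pairs by their scan. The height of the spots on the image (not their position across it) and the local background joined control 1 with irradiated 2, control 2 with irradiated 3, control 3 with irradiated 4 and control 4 with irradiated 5, while irradiated 1 had no partner. The labels name no slide or scan day, so these are called scan pairs here. Over all probes, the deviations of the arrays of a pair from their group means correlated with r between 0.20 and 0.46. With the 4 pairs as a block, 2.8% of all probes passed the adjusted test by limma, and 7.37% with the pairs as a random block over all 9 arrays. In both fits, 0 of 9 members passed it.

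Within pairs, Ren1 and Agtr1b were the 2 members lower in 4 of 4. Ren1 differed by −0.053, −0.23, −0.13 and −0.14, in the order of the pairs above, and with the pairs as a block by −0.14 (95% confidence interval −0.39 to 0.12, limma adjusted p = 0.506). For Agtr1b the differences were −0.35, −0.18, −1.43 and −0.80, and the blocked value was −0.69 (95% confidence interval −1.30 to −0.082, limma adjusted p = 0.196). Irradiated 1, where Agtr1b was highest, takes no part in that value.

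The remaining members changed sign between pairs. Ace, Enpep and Agtr1a were each lower in 3 of 4 pairs and higher in the pair of control 2 and irradiated 3, by 0.24, 0.22 and 0.37. Agt was higher in 2 pairs and lower in 2, by −0.077, 0.30, −0.30 and 0.17. Atp6ap2 was higher in 3 of 4 pairs, with −0.031, 0.29, 0.42 and 0.055, and its adjusted p with the pairs as a random block was 0.164.

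**Figure D3:**
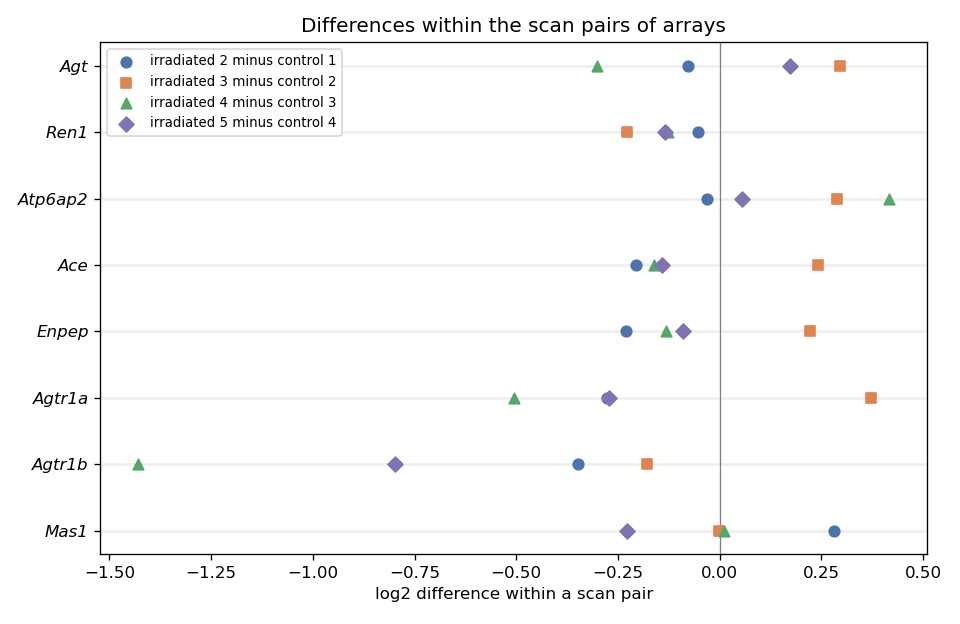
Difference of log2 intensity within each of the 4 scan pairs, irradiated minus control, for 8 members. One symbol stands for one pair. Ren1 and Agtr1b lie below 0 in every pair, and the pair of control 2 and irradiated 3 lies on the other side of 0 from the remaining pairs for Ace, Enpep and Agtr1a.

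Other peptidases that make or break angiotensins did not pass the test either. Of 16 such genes, all well above background on every array, 0 passed the adjusted test, 2 were higher and 1 lower at an unadjusted p under 0.05 by limma, and the median difference was 0.074. Ctsa, the lysosomal cathepsin A that can trim angiotensin I, differed by 0.60 (SE 0.17, adjusted p = 0.211) and was higher in 4 of 4 scan pairs. With the pairs as a fixed block Ctsa did not pass (0.71, limma adjusted p = 0.0560), and with the pairs as a random block, which was added after seeing the data, it was 0.67 with an adjusted p of 0.0124. Prcp, a lysosomal carboxypeptidase that removes the last residue of angiotensin II, differed by 0.36 (SE 0.16, adjusted p = 0.504) and by 0.36 with either block, with an adjusted p of 0.0809 for the fixed block and of 0.04999 for the random block.

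The neutral and membrane peptidases of the list lay near 0. Mme, neprilysin, which makes angiotensin-(1-7), differed by −0.052, and Anpep, aminopeptidase N, which acts on angiotensin III, by 0.0092. Lnpep, the insulin-regulated aminopeptidase that binds angiotensin IV, differed by 0.25. Their adjusted p values by limma were between 0.760 and 1.00.

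Mast cell and neutrophil proteases can make angiotensin II without Ace. Cma1 and Mcpt4, both chymases, differed by 0.16 and −0.56, Cpa3, the mast cell carboxypeptidase, by 0.14, and Ctsg, cathepsin G, by −0.0076, and none passed the test. In these genes the arrays of one kind lay far apart. Cpa3 read 8.17, 6.06, 8.06 and 8.39 in the controls and 6.51, 8.06, 9.36, 8.05 and 7.06 in irradiated lung. Control 2 was low in Cpa3 beside the other controls, and the mean of 8 mast cell markers, a list that holds Cpa3, Cma1 and Mcpt4, ranged from −0.48 to 0.39 in the controls and from −0.78 to 0.49 in the irradiated arrays.

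Of 15 genes that partner the receptors or carry their signal, 0 passed the adjusted test, 0 were higher and 2 lower at an unadjusted p under 0.05, and the median was −0.017. Agtrap, the type 1 receptor-associated protein, differed by 0.054 (adjusted p = 0.941). Mtus1, which binds the type 2 receptor, differed by −0.36 (SE 0.12, adjusted p = 0.311), was lower in 4 of 4 scan pairs, and fell by 0.45 with the pairs as a block (limma adjusted p = 0.0365). Rgs5, a regulator of G-protein signals found in pericytes, differed by 0.48 (SE 0.32, adjusted p = 0.705). Its differences within pairs ran from −0.53 to 1.52.

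The kinin arm held the 1 related gene past the threshold. Ace also degrades bradykinin, the peptide cut from kininogens. Of 7 genes of this arm, 1 rose in the adjusted test, 5 were higher and 0 lower at an unadjusted p under 0.05, and in 3 the irradiated arrays all lay above the controls. The median difference of the 7 genes was 0.71. Of all 20854 genes, 52 rose and 31 fell in the adjusted test, and 1473 were higher and 1030 lower at an unadjusted p under 0.05. In 670 of them the irradiated arrays all lay above the controls. Read against these, the values of the kinin arm are counts and a median and no test of the list.

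Cpn2, the regulatory subunit of the plasma carboxypeptidase N that inactivates kinins, was the gene that rose. It read 4.71, 4.73, 3.49 and 4.44 in the controls and 5.87, 6.20, 7.10, 6.51 and 7.06 in irradiated lung. Every irradiated array lay above every control, and the probe was well above background on 3 of 4 controls and 5 of 5 irradiated arrays. The rise was 2.21 (SE 0.35, 95% confidence interval 1.43 to 2.98, limma adjusted p = 0.0416). Its adjusted p lay between 0.0197 and 0.132 when 1 array was left out, and of these 9 fits only the one without irradiated 1 kept it under the threshold. With the scan pairs as a block the rise was 2.38 (limma adjusted p = 0.0312). With the pairs as a random block, which was added after seeing the data, it was 2.31 (limma adjusted p = 0.0017). With the replicate block, in which same-numbered arrays were paired, the adjusted p of Cpn2 was 0.339. The size of the rise also depended on the processing, since it was 0.89 with normexp (adjusted p = 0.0479) and 1.21 in the authors' normalized table (adjusted p = 0.618). Cpn1, the catalytic subunit, differed by 0.31 (SE 0.28, adjusted p = 0.809).

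The kininogen Kng1 had larger values with a wide spread. It read 7.87, 8.15, 7.31 and 7.11 in the controls and 8.29, 10.18, 11.90, 12.81 and 13.02 in irradiated lung. All irradiated arrays lay above all controls, irradiated 1 by the smallest step. The difference of 3.63 (SE 0.87, 95% confidence interval 1.69 to 5.57) did not pass the test (limma adjusted p = 0.145), while without irradiated 1 it was 4.37 with an adjusted p of 0.0152, and with the scan pairs as a block it was 4.37 with an adjusted p of 0.0429. Leaving out another array gave an adjusted p of up to 0.322, with the replicate block it was 0.408, and in the authors' table the difference was 2.75 (adjusted p = 0.174). Kng2, named after its values were seen, was well above background on 2 of 4 controls and 4 of 5 irradiated arrays, so its difference of 4.05 (adjusted p = 0.155) rests in part on signal near background. Its adjusted p was 0.0200 without irradiated 1, up to 0.336 without another array, 0.0475 with the scan pair block and 0.408 with the replicate block. The Kng2 difference was 2.43 with normexp (adjusted p = 0.239) and 2.61 in the authors' table (adjusted p = 0.344). These genes are near-identical copies, so the share of each in either probe is uncertain. Kininogen is a liver product, and the 6 liver markers, whose ranges are given with Agt, were highest on irradiated 2, which had the second lowest Kng1 of the irradiated arrays. The part of other tissues in the kininogen values was not tested.

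Bdkrb2, the constitutive bradykinin receptor, differed by 0.71 (SE 0.27, 95% confidence interval 0.11 to 1.32, limma adjusted p = 0.389) and was higher in 4 of 4 scan pairs, with an adjusted p of 0.151 when the pairs were a block. The Bdkrb2 difference was smaller with normexp, 0.33, and in the authors' table, 0.39. Bdkrb1, the inducible bradykinin receptor, named after its values were seen, differed by 0.65 (SE 0.22, limma adjusted p = 0.317) and was higher in 4 of 4 pairs. With the scan pairs as a block Bdkrb1 differed by 0.64 (adjusted p = 0.0429), and in the authors' table by 0.44 (adjusted p = 1.00). Cpm, the membrane carboxypeptidase that also acts on kinins, differed by −0.33 (SE 0.20, adjusted p = 0.672) and was lower in 4 of 4 pairs.

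**Figure D4:**
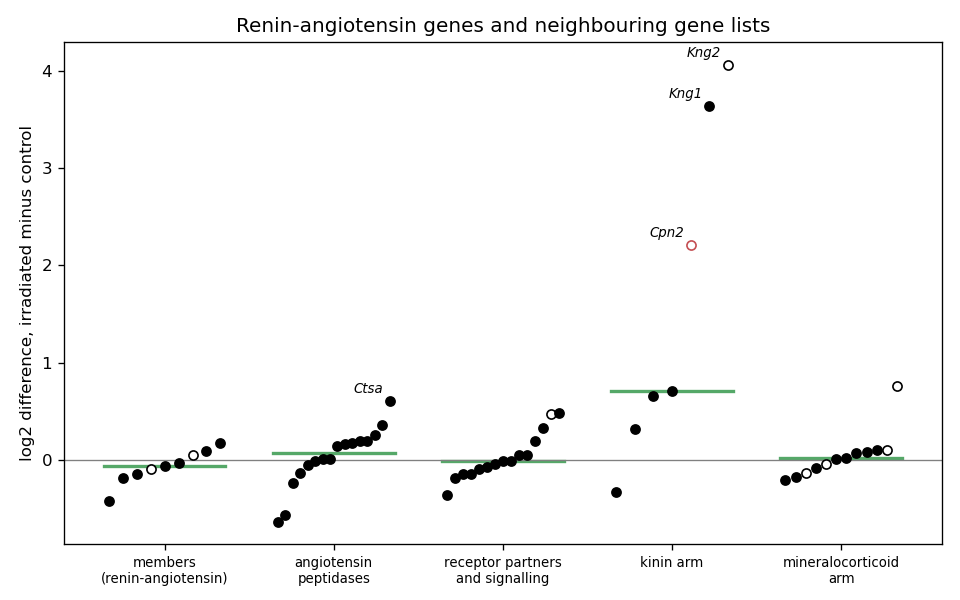
Difference of log2 intensity, irradiated minus control, for each gene of the 9 members and of 4 lists of related genes. Green bars are medians, open points fell short of that detection call on at least 1 array, and red marks Cpn2, the gene past the adjusted threshold. The members lie between −0.42 and 0.18, and Cpn2, Kng1 and Kng2 of the kinin arm lie above 2.

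Downstream of angiotensin, aldosterone acts on sodium transport. Of 12 genes of this arm, 0 passed the adjusted test and 1 was higher at an unadjusted p under 0.05, with a median of 0.014. Nr3c2, the mineralocorticoid receptor, differed by −0.081 and Sgk1, its target kinase, by 0.082. Atp1b1, a subunit of the sodium pump, differed by −0.21 (SE 0.099, adjusted p = 0.534). Cyp11b2, the aldosterone synthase of the adrenal gland, was not well above background on any array.

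Atp6ap2 and Agtr1a were taken because they had the smallest limma p among members well above background on all 9 arrays. The genes most like these 2 members were found by Pearson's r of log2 intensity over the 9 arrays. The search was among genes well above background on every array. For Atp6ap2 they were Pcdhb7 (r = 0.91), Shmt1 (r = 0.90), Adss (r = 0.89), B430306N03Rik (r = 0.88) and Gm5086 (r = 0.88). For Agtr1a they were Rps6 (r = 0.94), Zbtb25 (r = 0.93), Fcmr (r = 0.92), Dph6 (r = 0.92) and Rnf113a2 (r = 0.91). The points share their arrays and their normalization, and the values are a description of 9 arrays.

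Array quality and the tissue bear on all these values. Between 72.8% and 89.1% of spots were well above background per array, and 0 spots were saturated. The lung identity of the arrays was checked on 6 surfactant and other type II alveolar markers and on 4 type I markers, all of which were well above background on every array. Of the members, 7 of 9 were well above background on every array, the exceptions being Agtr2 and Mas1. The precision is limited by the number of arrays.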

How the data were processed

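The authors deposited Agilent scanner output for 9 one-color arrays as intensity values, with the background-subtracted processed signal used here, and a quantile-normalized intensity table that served as an alternative. Control spots and outlier spots were left out. The filter asked for a signal above 1.4 times local background on 4 or more of 9 arrays (39302 of 39429 probes), and log2 values were then quantile normalized and averaged per probe. The array files carry a pair of accession versions, and the newer was used where it gave a symbol in the RefSeq table of GRCm38.p6. Each gene is shown by its brightest probe.

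Groups were compared with limma 3.58.1 under R 4.3.3, in a model without covariates whose variance followed an intensity trend, and p-values were adjusted by Benjamini-Hochberg over all 39302 probes at 0.05. The scripts were tested on simulated data. The members and gene lists were chosen with earlier results of these data known. The genes named beside the members were 14 fixed genes of the related lists, any gene past the threshold, and the largest rise and fall of each list among genes well above background on all 9 arrays, some of which are not reported here. Same-numbered control and irradiated arrays are not paired by the labels. The alternatives were 21 in number and changed the background correction, scaling, filter, table, variance trend, array weights, probe choice, arrays and blocks. Scan pairs as a random block and the other Mas1 probe were added after seeing the data. Columns with no matching sample numbered 0.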

Additional observations from a re-analysis of the deposited data

Results flagged for a closer look

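Within groups of 4 or 5 arrays, 64 sets of values were screened by Dixon's test for an array far from the others, of which chance alone gives about 1 in 20, and 3 were singled out. Cpa3 read 6.06 on control 2, against 8.06 to 8.39 on the other controls. Sgk1 read 13.39 on control 2, against 13.83 to 13.89 on the other controls. Enpep minus the mean of the pericyte markers was 0.12 on irradiated 1, against −0.72 to −0.52 on the other irradiated arrays.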

How the results depend on the processing

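No member passed the adjusted test under any of the 21 alternatives. With 1 array left out, 1 member had groups that did not overlap without control 2 (Agtr1a) and 1 without irradiated 2 (Atp6ap2), so this count ran from 0 to 1. The count of other pathway genes past the threshold, 1 with all arrays, ran from 0 to 3 with 1 array left out. It was 0 in the authors' normalized table, 0 without the intensity trend, 0 with the replicate block, 5 with the scan pair block and 10 where the pairs were a random block. The cause was not tested.

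Small differences changed sign. For the within-array differences, the exact test could not pass with 4 pairs, nor could a single difference pass after adjustment with a control left out, so those settings give values only. With normexp, Ace was 0.0095 and Mas1 0.046. Scaling to the 75th percentile gave −0.044 for Cma1 and −0.023 for Cpa3. The authors' table gave 0.032 for Mas1 and 0.12 for Mme, and array weights gave 0.0041 for Mas1. With the replicate block, in which same-numbered arrays were paired, Ace was 0.0057, Mas1 0.035 and Ctsg 0.11. The deviations of same-numbered arrays correlated with r between −0.17 and 0.062, so the numbers did not pair the arrays. With the scan pair block, Agt was 0.022, Enpep −0.058 and Mas1 0.016.

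Leaving out 1 array at a time moved Ace between −0.13 and 0.083, Agt between −0.27 and 0.22, Enpep between −0.058 and 0.19 and Mas1 between −0.21 and 0.044. Of the other genes, Mme ran from −0.20 to 0.042, Anpep from −0.11 to 0.11, Cma1 from −0.24 to 0.39, Mcpt4 from −0.97 to −0.22, Cpa3 from −0.40 to 0.46, Ctsg from −0.17 to 0.18 and Sgk1 from −0.036 to 0.13. Ace minus the endothelial markers ran from −0.035 to 0.11. Signal near background limits Mas1, and Agtr2, at background on every array, has no difference to follow.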
